A study of Mus musculus with 12 samples.

Results

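Avp, Oxt, Trh, Pomc, Agrp, Npy, Tac2, Ghrh, Sst and Pmch, 10 genes that encode neuropeptide precursors of the hypothalamus, were followed through poly(A) RNA libraries of mouse optic nerve. They were taken by gene symbol from a table of 35275 genes, in which each symbol matched 1 row. All 10 passed the filter on low counts that left 18344 genes for testing, Ghrh only through its counts in the selumetinib libraries. The libraries came from mice of a neurofibromatosis type 1 (NF1) model given selumetinib (3 libraries), carboplatin (3 libraries) or phosphate-buffered saline (PBS, 6 libraries). Selumetinib inhibits the MEK kinases downstream of RAS, and carboplatin is a platinum drug that cross-links DNA. All groups shared the NF1 model background, and a wild-type group was not used here. The sources used here give neither the Nf1 alleles nor any Cre driver, and no drug dose, schedule, animal age or sex. Nothing in the labels says whether replicate libraries were made from different mice. The p-values therefore measure the spread between these libraries, which may be technical in part.

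Neuropeptides are made as longer precursors, sorted into dense-core granules, cut by prohormone convertases and released from neurons. In the hypothalamus, which lies directly above the optic chiasm, each gene is known from particular neurons. Avp and Oxt mark the large neurosecretory neurons of the supraoptic and paraventricular nuclei, and Trh is made in the paraventricular nucleus among other sites. Pomc, Agrp, Npy, Ghrh and Tac2 are known from the arcuate nucleus at the base of the hypothalamus, Sst from the periventricular and arcuate nuclei, and Pmch from the lateral hypothalamus. Npy and Sst are also made by interneurons of the cortex and by cells of the retina, and Pomc by the pituitary. The optic nerve carries the axons of retinal ganglion cells among glia and holds few neuronal cell bodies.

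On build mm10 (GRCm38), Avp and Oxt lie 3565 bases apart on chromosome 2, Oxt on the plus strand and Avp on the minus strand, so that their transcripts run toward each other. Avp (ENSMUSG00000037727) spans 130580620 to 130582554 and Oxt (ENSMUSG00000027301) spans 130576173 to 130577054. Pomc (ENSMUSG00000020660) lies on chromosome 12 at 3954951 to 3960642, and Sst (ENSMUSG00000004366) on chromosome 16 at 23889573 to 23890958. In GENCODE M21, 8 of the 10 genes overlap no other annotated gene. Trh and Npy lie on chromosome 6, Tac2 and Pmch on chromosome 10, Ghrh on chromosome 2 and Agrp on chromosome 8. Pmch overlaps Parpbp, which runs on the opposite strand, and the annotated Agrp gene overlaps Ctcf, Ripor1 and 5 other genes. The strand setting of the counting was not given in the sources used here, so the counts of these 2 genes are uncertain.

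Promoter windows of 300 bases, from 250 before to 50 after the transcription start, were found for 9 of the 10 genes in RefSeq (GRCm38.p6). They are shown for both neurohypophysial hormones, whose RNA was found in every library, and for Pomc and Sst, which were far higher in selumetinib 1 and 2 than in the other libraries. Capitals mark a TATA box (TATAAA) or a cyclic AMP response element (TGACGTCA), and each sequence runs 5′ to 3′ on the strand of its gene.
Avp promoter, chr2:130582539-130582838, minus strand: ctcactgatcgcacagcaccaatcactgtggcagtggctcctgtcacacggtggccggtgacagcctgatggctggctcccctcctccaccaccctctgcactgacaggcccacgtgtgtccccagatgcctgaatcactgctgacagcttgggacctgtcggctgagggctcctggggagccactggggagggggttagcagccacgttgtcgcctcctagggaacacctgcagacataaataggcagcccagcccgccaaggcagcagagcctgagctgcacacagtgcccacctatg
Oxt promoter, chr2:130575919-130576218, plus strand: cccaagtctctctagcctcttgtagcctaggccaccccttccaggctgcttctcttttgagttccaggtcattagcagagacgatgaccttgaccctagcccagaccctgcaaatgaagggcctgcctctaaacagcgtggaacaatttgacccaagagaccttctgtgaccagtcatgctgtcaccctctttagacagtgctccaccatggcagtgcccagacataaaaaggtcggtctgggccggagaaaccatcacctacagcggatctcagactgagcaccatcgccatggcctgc
Pomc promoter, chr12:3954695-3954994, plus strand: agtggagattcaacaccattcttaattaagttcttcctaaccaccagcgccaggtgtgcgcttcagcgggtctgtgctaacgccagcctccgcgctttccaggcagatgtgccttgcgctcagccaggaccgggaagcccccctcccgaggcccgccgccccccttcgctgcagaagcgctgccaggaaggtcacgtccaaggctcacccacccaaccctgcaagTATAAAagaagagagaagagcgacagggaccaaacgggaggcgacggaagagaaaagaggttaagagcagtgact
Sst promoter, chr16:23890795-23891094, minus strand: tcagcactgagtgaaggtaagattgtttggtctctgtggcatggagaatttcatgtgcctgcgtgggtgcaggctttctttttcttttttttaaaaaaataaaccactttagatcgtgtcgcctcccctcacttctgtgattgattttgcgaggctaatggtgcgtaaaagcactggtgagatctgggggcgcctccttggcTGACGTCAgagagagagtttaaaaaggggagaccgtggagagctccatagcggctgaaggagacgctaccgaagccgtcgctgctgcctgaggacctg
With the start site counted as 0, the element TGACGTCA stood at -48 to -41 of Sst, the somatostatin gene from which this element is classically known. It was in 1 of the 9 windows, against 1.79% of 32851 RefSeq promoter windows, read on both strands. The letters TATAAA were in 2 of the 9 windows, those of Pomc and Pmch, against 13.6% of all windows, and TGACG, which also occurs within TGACGTCA, was in 3 of the 9 (Trh, Ghrh and Sst), against 20.8%. These are matches of letters and not measured sites.

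Library totals ran from 21793052 to 33375754 counts. Mature oligodendrocyte markers, which define this tissue, summed to 27551 and 18955 CPM (counts scaled to a common library size) in selumetinib 1 and 2 and to 28309 CPM in PBS 1, against 50637 to 94968 CPM in the other 9 libraries. Pan-neuron markers summed to 3651 and 3547 CPM in selumetinib 1 and 2, against 134 to 1185 CPM in the other 10 libraries. Skeletal muscle markers summed to 76594 CPM in PBS 1, 214 and 336 CPM in PBS 2 and 3 and 125 to 2190 CPM in carboplatin, against 6.50 to 7.08 CPM in selumetinib and 5.38 to 6.77 CPM in PBS 4 to 6. Retina markers were likewise higher in carboplatin (42.4 to 1439 CPM) and PBS 1 to 3 (10.8 to 115 CPM) than in selumetinib (2.61 to 4.46 CPM) and PBS 4 to 6 (1.87 to 3.59 CPM). By these markers PBS 1 to 3 were like the carboplatin libraries and PBS 4 to 6 like the selumetinib libraries. The labels name no batch, and the part of this split in the results was not tested. CPM values throughout are scaled with TMM factors. In bulk tissue, fewer cells of a type and less RNA per cell cannot be told apart.

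**Figure D1:**
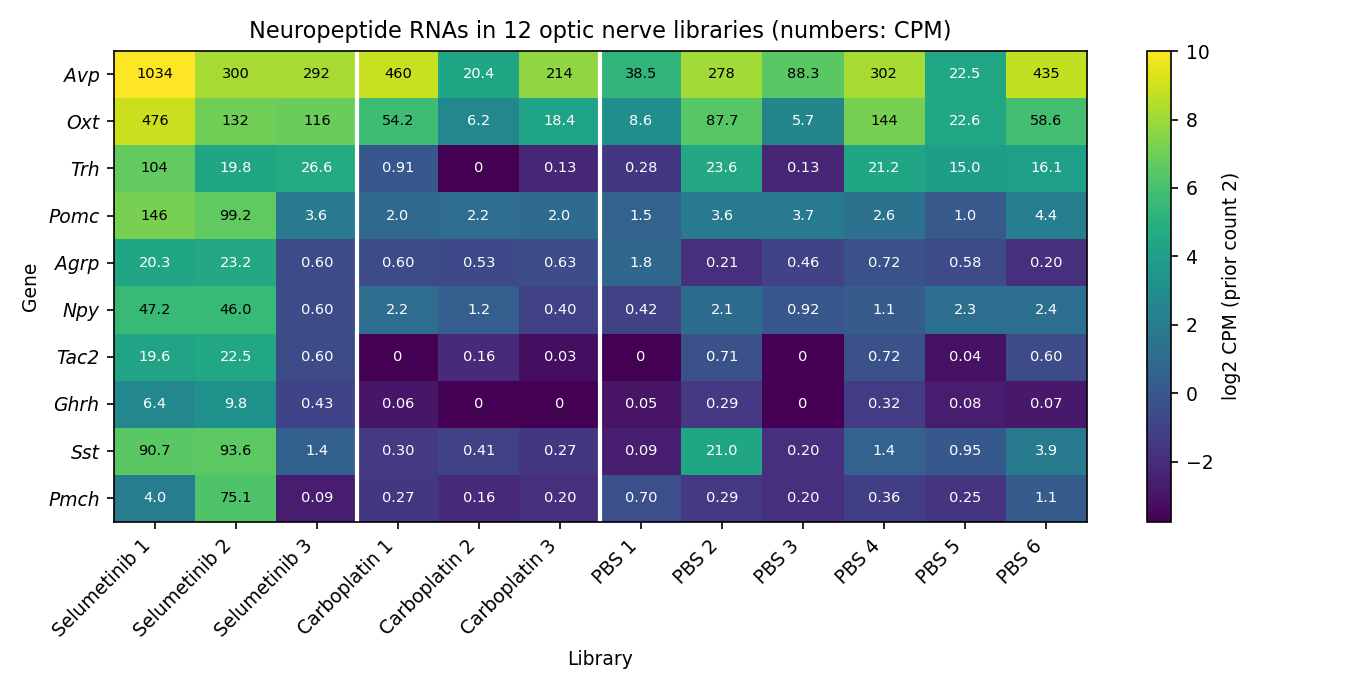
CPM of each neuropeptide gene (rows) in each of the 12 libraries (columns, groups divided by white lines), coloured by log2 CPM with a prior count of 2 and with the CPM printed in each cell. Avp and Oxt are above 5 CPM in every library, while Pomc, Agrp, Npy, Tac2, Ghrh, Sst and Pmch are highest in selumetinib 1 and 2.

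Avp, Oxt, Pomc, Agrp and Npy, 5 of the 10 genes, were counted more than 3 times in all 12 libraries, and 3 (Trh, Sst and Pmch) in 11. Tac2 exceeded 3 counts in 7 libraries and Ghrh in 5, which were the 3 selumetinib libraries, PBS 2 and PBS 4. No gene (0 of 10) exceeded 3 counts in selumetinib 1 and 2 only. The genes differed in how their counts were spread. Of all counts of Pmch over the 12 libraries, 95.8% were in selumetinib 1 and 2, as were 94.2% of Tac2, 93.5% of Ghrh, 90.6% of Pomc, 88.3% of Agrp, 87.7% of Npy and 87.5% of Sst. The same libraries held 57.3% of the Trh counts, 55.8% of Oxt and 38.4% of Avp. Together the 10 genes took 0.217%, 0.0943% and 0.0473% of all counts in selumetinib 1, 2 and 3, against 0.00275% to 0.0516% in carboplatin and 0.00377% to 0.0542% in PBS. Avp and Oxt made up 77.5%, 52.6% and 92.3% of these counts in selumetinib 1, 2 and 3, against 85.05% to 98.8% in carboplatin and 69.0% to 94.5% in PBS.

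Avp, the precursor of vasopressin and neurophysin II, was the most abundant of the 10 RNAs per kilobase of exon in every group. It was at 1034, 300 and 292 CPM in selumetinib 1, 2 and 3, and at 460, 20.4 and 214 CPM in carboplatin 1, 2 and 3. In PBS it ran from 22.5 CPM (PBS 5) through a median of 183 to 435 CPM (PBS 6). Selumetinib 1 was the highest library, selumetinib 2 and 3 and carboplatin 3 lay inside the PBS range, and carboplatin 1 and 2 lay just above and just below it. The spread within a group was 22.5-fold in carboplatin and 19.4-fold in PBS, against 3.55-fold in selumetinib. The fitted log2 fold change was 1.48 ± 0.97 (SE) for selumetinib against PBS (edgeR adjusted p = 0.348) and 0.26 ± 0.99 for carboplatin against PBS (edgeR adjusted p = 0.923). It was 0.62 for selumetinib without selumetinib 1, and -0.72 for carboplatin without carboplatin 1.

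Oxt, the precursor of oxytocin and neurophysin I, was at 476, 132 and 115 CPM in selumetinib 1, 2 and 3, and at 54.2, 6.24 and 18.4 CPM in carboplatin 1, 2 and 3. In PBS its lowest, median and highest values were 5.67 (PBS 3), 40.6 and 144 CPM (PBS 4). The selumetinib libraries overlapped the top of the PBS range, and the carboplatin libraries all lay inside it. The log2 fold change was 2.14 ± 0.95 for selumetinib against PBS (edgeR adjusted p = 0.198) and -1.05 ± 1.04 for carboplatin against PBS (adjusted p = 0.652). The selumetinib value was 1.19 without selumetinib 1 and 2.73 without PBS 4, and the carboplatin value was -2.14 without carboplatin 1. Per kilobase of exon, Avp RNA stood at 2.02, 2.12 and 2.35 times Oxt RNA in selumetinib 1, 2 and 3. That ratio was 3.05 to 10.8 in carboplatin and 0.927 (PBS 5) to 14.5 (PBS 3) in PBS, so the PBS range covered every value of both drug groups.

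Trh, the precursor of thyrotropin-releasing hormone, split into a high and a low set of libraries that cut across the groups. It was at 104, 19.8 and 26.6 CPM in selumetinib 1, 2 and 3. In carboplatin it was at 0.907, 0 and 0.134 CPM, where the 0 of carboplatin 2 allows up to 3 counts, or 0.122 CPM. PBS 2, 4, 5 and 6 held 23.6, 21.2, 15.01 and 16.1 CPM, while PBS 1 and 3 held 0.279 and 0.131 CPM. The carboplatin libraries lay near PBS 1 and 3, and selumetinib 2 lay among the 4 higher PBS libraries, below selumetinib 1 and 3. Trh had the largest fitted change of the 10 genes for carboplatin against PBS, at -5.13 ± 1.76 on the log2 scale (edgeR adjusted p = 0.174). Set against PBS 1 to 3 as controls it was -4.51 (edgeR adjusted p = 0.472), and against PBS 4 to 6 it was -5.53 (edgeR adjusted p = 0.0143). It was -7.38 without carboplatin 1 (edgeR adjusted p = 0.256), and was also called without PBS 1 (edgeR adjusted p = 0.0422) and by DESeq2 (adjusted p = 0.00852). For selumetinib against PBS the log2 fold change was 1.98 ± 1.23 (edgeR adjusted p = 0.326), and 0.87 without selumetinib 1.

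**Figure D2:**
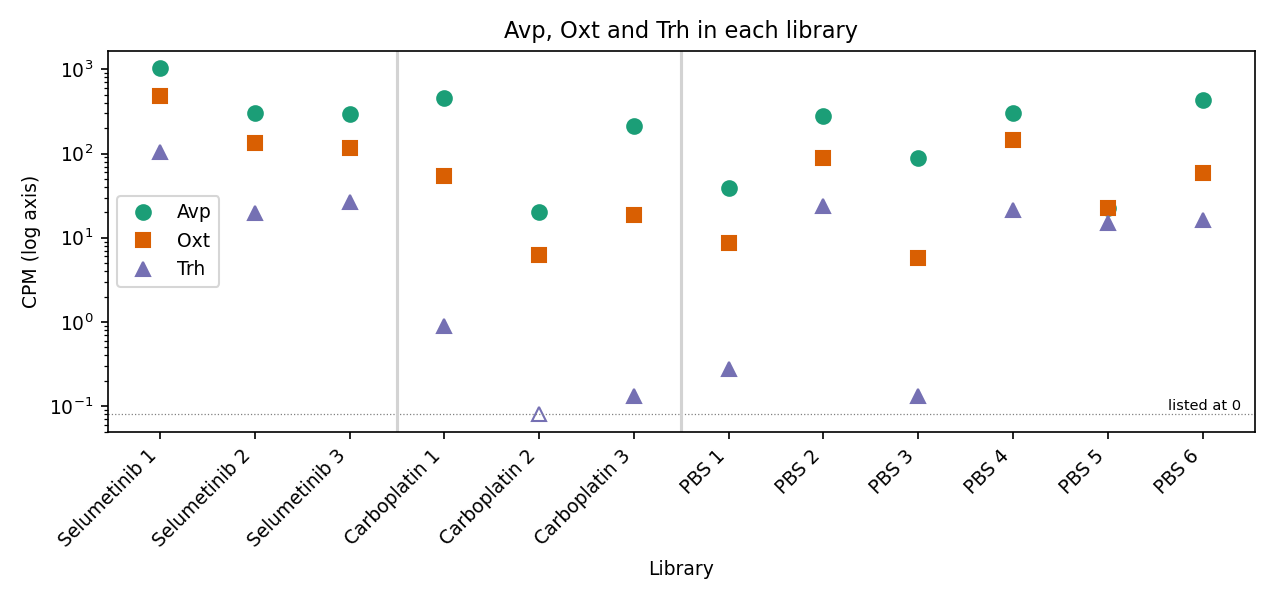
CPM (log axis) of Avp (circles), Oxt (squares) and Trh (triangles) in each library, with groups divided by grey lines and the open triangle a library listed at 0. Avp lies above Oxt in all libraries but PBS 5, where they are at 22.5 and 22.6 CPM, and Trh is below 1 CPM in the carboplatin libraries, PBS 1 and PBS 3.

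Pomc, whose precursor gives ACTH, melanocortins and beta-endorphin, was at 146, 99.2 and 3.64 CPM in selumetinib 1, 2 and 3. It was at 1.97, 2.20 and 2.00 CPM in carboplatin, and at 0.989 (PBS 5), 3.14 and 4.38 CPM (PBS 6) as the lowest, median and highest of PBS. Selumetinib 1 and 2 stood far above all other libraries, and selumetinib 3 lay within the PBS range. The lower of selumetinib 1 and 2 was 22.6 times the highest of the other 10 libraries. For selumetinib against PBS the log2 fold change was 4.88 ± 0.78 (edgeR adjusted p = 0.0884). It was 0.36 ± 0.69 with selumetinib 3 alone against PBS, a lone library assumed to vary like the other groups, and 5.46 ± 0.44 without selumetinib 3 (edgeR adjusted p = 0.00052). Without selumetinib 1 it was 4.21 (edgeR adjusted p = 0.415).

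The other arcuate genes were likewise highest in selumetinib 1 and 2. Agrp, an antagonist of melanocortin receptors, was at 20.3, 23.2 and 0.599 CPM in selumetinib 1, 2 and 3, at 0.605, 0.530 and 0.634 CPM in carboplatin, and at 0.199, 0.518 and 1.82 CPM as the lowest, median and highest of PBS. Npy, made with Agrp in neurons that promote feeding, was at 47.2, 46.0 and 0.599 CPM in selumetinib 1, 2 and 3, at 2.18, 1.22 and 0.401 CPM in carboplatin, and at 0.419, 1.58 and 2.36 CPM in PBS. Selumetinib 3 overlapped PBS for both genes. Tac2, the neurokinin B precursor, was at 19.6, 22.5 and 0.599 CPM in selumetinib 1, 2 and 3, at 0, 0.163 and 0.0334 CPM in carboplatin, and at 0 to 0.717 CPM in PBS, where 0 counts were listed in PBS 1 and 3. Ghrh, the precursor of growth hormone-releasing hormone, was at 6.40, 9.80 and 0.428 CPM in selumetinib 1, 2 and 3. It was at 0 to 0.0605 CPM in carboplatin, which is 0 to 2 counts, and at 0 to 0.319 CPM in PBS, which is 0 to 8 counts. Ghrh was the 1 gene of the 10 with all selumetinib libraries above all PBS libraries, by 10 counts in selumetinib 3 against 8 in PBS 4. Of the genes tested, 3.23% were so ordered (0 of the 10 genes and 2.70% of all genes had the opposite order). Ghrh reached 10 counts only in the selumetinib libraries and passed the filter on low counts through them alone. Its order was therefore set in part by the filter and is no separate evidence.

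The log2 fold changes for selumetinib against PBS were 4.47 ± 0.88 for Agrp, 4.35 ± 0.93 for Npy, 5.34 ± 1.30 for Tac2 and 5.34 ± 1.04 for Ghrh, each with an edgeR adjusted p of 0.0884. With selumetinib 3 as the remaining library they were -0.12, -1.35, 0.77 and 1.64. Without selumetinib 3 they were 5.09, 4.95, 5.93 and 5.91, with edgeR adjusted p-values of 0.00159, 0.0016, 0.00861 and 0.00311. Agrp was at 5.08 without PBS 1 and Ghrh at 4.66 without selumetinib 2. For carboplatin against PBS, Agrp was at -0.15 ± 0.92, Npy at -0.27 ± 0.97, Pomc at -0.46 ± 0.80 and Tac2 at -2.42 ± 1.67, with edgeR adjusted p-values from 0.508 to 0.952. Agrp was at 0.44 without PBS 1, Npy at -0.92 without carboplatin 1, and Tac2 at -1.81 without carboplatin 1 and -4.08 without carboplatin 2. The direction of Agrp and Npy in carboplatin turned in some alternative settings.

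Sst, the precursor of somatostatin, was at 90.7, 93.6 and 1.37 CPM in selumetinib 1, 2 and 3, and at 0.302, 0.408 and 0.267 CPM in carboplatin. In PBS its lowest value was 0.0931 CPM (PBS 1), its median 1.19 and its highest 21.0 CPM (PBS 2). PBS 2 stood above the other PBS libraries, of which the next was PBS 6 at 3.85 CPM, and was also the PBS library with the most pan-neuron RNA, 1185 CPM. The log2 fold change was 3.75 ± 1.38 for selumetinib against PBS (edgeR adjusted p = 0.146), 4.34 without selumetinib 3 (adjusted p = 0.0418) and -1.77 with selumetinib 3 alone. Without PBS 2 it was 5.59 (edgeR adjusted p = 0.0748). For carboplatin against PBS it was -3.81 ± 1.82 (edgeR adjusted p = 0.326) and -1.996 without PBS 2 (adjusted p = 0.527), with all carboplatin libraries inside the PBS range.

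Pmch, the precursor of melanin-concentrating hormone, was far higher in selumetinib 2 than in any other library. It was at 4.00, 75.1 and 0.0855 CPM in selumetinib 1, 2 and 3, at 0.272, 0.163 and 0.200 CPM in carboplatin, and at 0.197, 0.326 and 1.13 CPM as the lowest, median and highest of PBS. Selumetinib 2 was 18.8 times selumetinib 1 (exact 95% interval 15.6 to 22.9, counting error only). The log2 fold change was 5.74 ± 1.24 for selumetinib against PBS (edgeR adjusted p = 0.0884), 2.09 without selumetinib 2 (adjusted p = 0.532) and 6.37 without selumetinib 3 (adjusted p = 0.00177). Parpbp, the gene on the opposite strand, followed it at 2.76, 53.9 and 0.171 CPM in selumetinib 1, 2 and 3, against 0.133 to 1.63 CPM in the other libraries. Whether reads of Pmch entered the count of Parpbp was not tested.

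**Figure D3:**
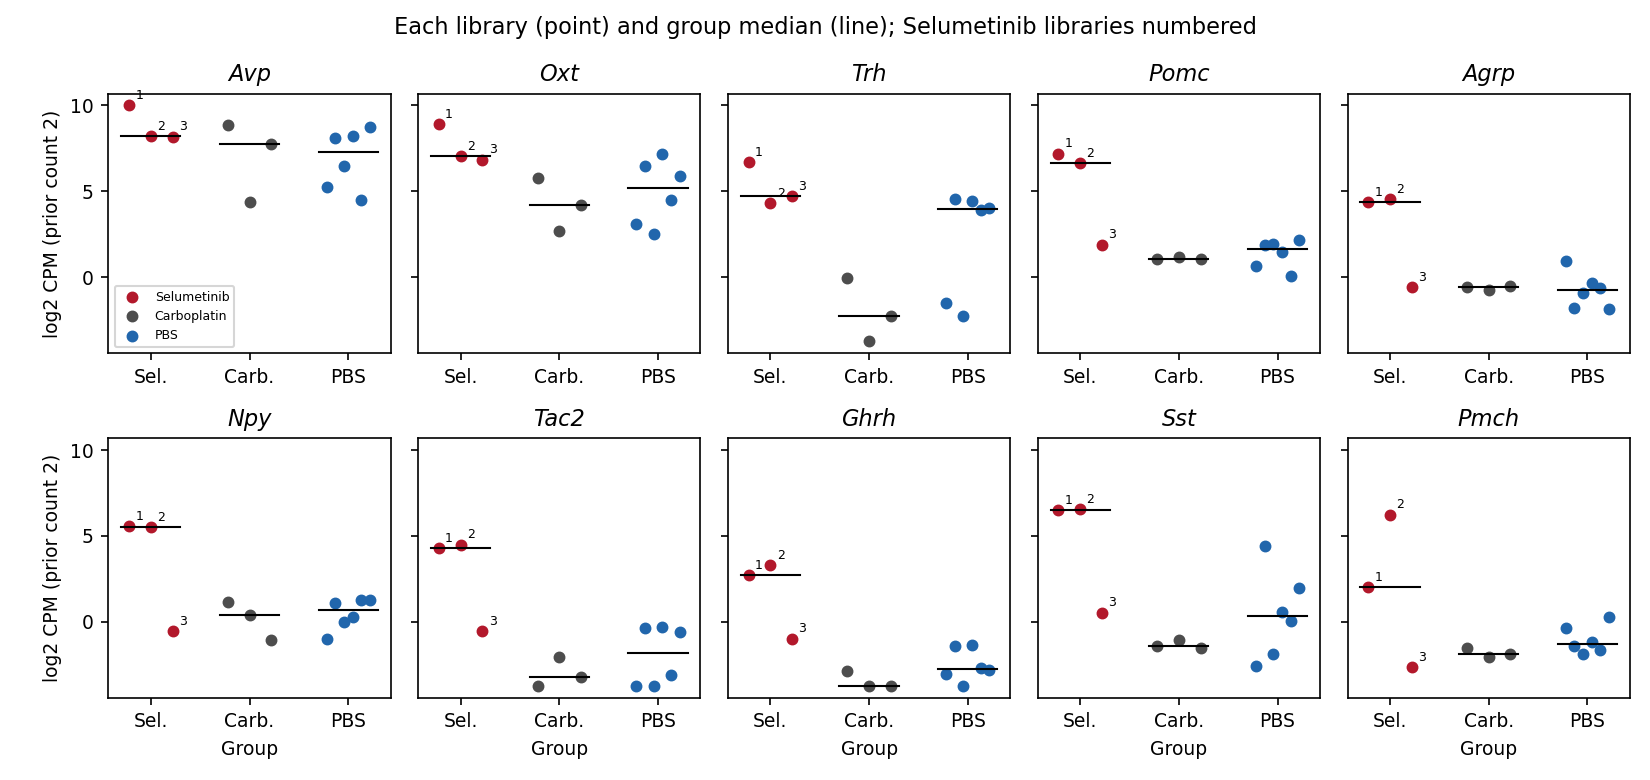
log2 CPM with a prior count of 2 for each gene (panels) in each library (points) of the selumetinib, carboplatin and PBS groups, with lines at the group medians and the selumetinib libraries numbered. For Pomc, Agrp, Npy, Tac2, Ghrh, Sst and Pmch, selumetinib 1 and 2 lie above all other libraries, and for Avp, Oxt and Trh the selumetinib range overlaps that of PBS.

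Of the remaining 9 genes, 7 differed between selumetinib 1 and 2 beyond counting error, in both directions. Selumetinib 1 held more Trh (5.27 times selumetinib 2), Oxt (3.62 times), Avp (3.45 times) and Pomc (1.47 times), with exact 95% intervals of counting error that all lay above 1. Selumetinib 2 held more Ghrh (1.53 times selumetinib 1), Tac2 (1.15 times) and Agrp (1.14 times), with lower bounds of 1.26, 1.03 and 1.02. Npy and Sst differed by less than counting error, at 1.03 times in selumetinib 1 for Npy (0.9495 to 1.11) and 1.03 times in selumetinib 2 for Sst (0.978 to 1.09). These intervals compare the libraries and not the conditions.

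For the whole set, selumetinib against PBS gave positive log2 fold changes for 10 of 10 genes, with a median of 4.41, against a median of -0.09 over all 18344 genes tested. By edgeR 0 of the 10 genes passed an adjusted p under 0.05, as did 0% of all genes tested, and the lowest adjusted p of any gene was 0.0884. At an unadjusted edgeR p under 0.05, 8 of the 10 were higher, against 14.0% of all genes. Ghrh was among these 8, though it passed the filter on low counts only through the selumetinib libraries. DESeq2 called 6 of the 10 higher and 0 lower, against 6.38% and 2.41% of its genes, and gave Sst no adjusted p. With limma voom with quality weights, used wherever limma voom is named, 8 were called higher and 0 lower, against 29.0% and 26.4% of all genes. Without selumetinib 3, edgeR called 7 of the 10 higher and 0 lower, against 12.7% and 8.88% of all genes, and without selumetinib 1 and 2 it called 0 (0%), with a median of 0.47 and 6 of 10 genes positive. With PBS 4 to 6 as controls 10 of 10 genes were positive with a median of 4.88, and edgeR called 0 of the 10 and 0 genes in all. In selumetinib 3 alone, 7 of the 10 genes lay within the PBS range. Both selumetinib 1 and 2 exceeded the other 10 libraries for 7 of the 10 genes and for 18.7% of all genes tested, an order that was known when the genes were chosen. Both exceeded 5 times the other libraries for 5 of the 10 genes and 0.681% of all genes. The summed levels of neuron markers were higher and those of oligodendrocyte markers lower in the same pair of libraries, and their part in these results was not tested.

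**Figure D4:**
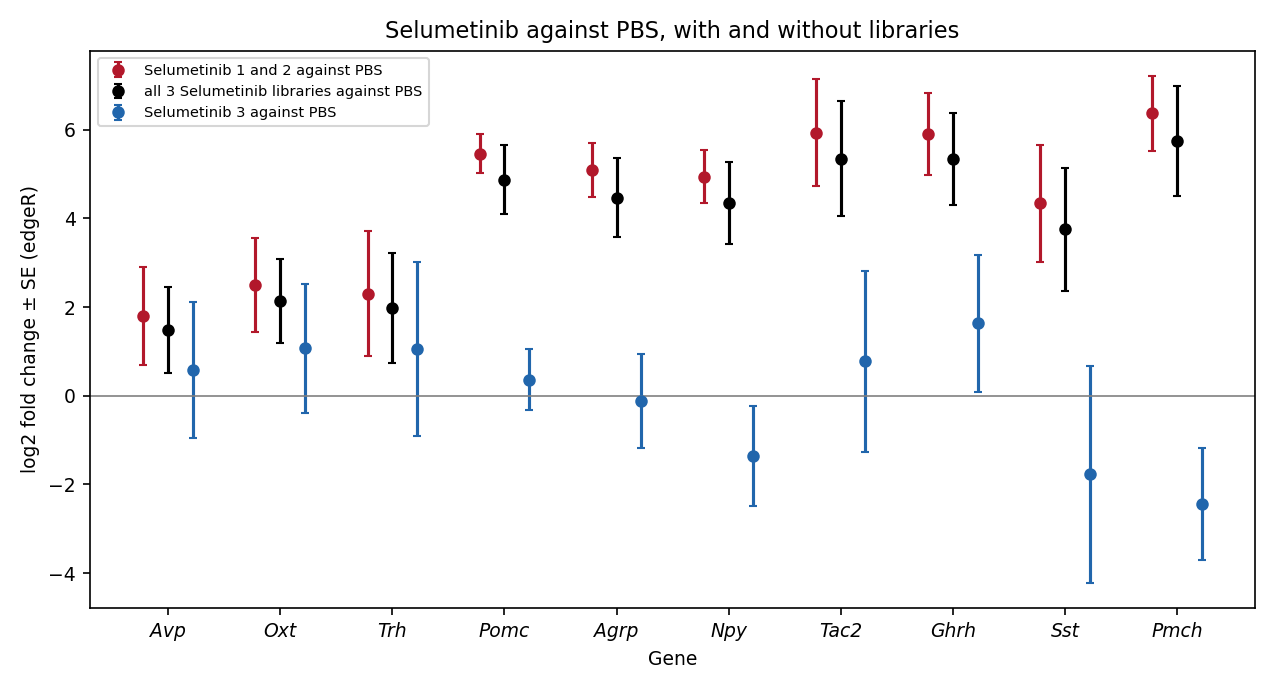
Log2 fold change against PBS with its SE, from edgeR, for each gene in fits without selumetinib 3 (red), with all 3 selumetinib libraries (black) and without selumetinib 1 and 2 (blue). Pomc is at 5.46, 4.88 and 0.36 in the 3 fits, and all but Avp, Oxt and Trh lie above 4 in the red fit.

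Carboplatin against PBS gave a positive log2 fold change for 1 of the 10 genes, Avp, with a median of -1.11 over the set, against -0.11 over all genes tested. By edgeR 0 of the 10 genes passed in either direction, against 1.57% of all genes higher and 0.518% lower. At an unadjusted edgeR p under 0.05, 1 gene was lower (Trh), against 8.43% of all genes, and 0 were higher, against 8.12%. DESeq2 called 1 gene lower (Trh) and 0 higher, against 2.77% and 2.97%, and limma voom called 0 lower and 0 higher, against 12.7% and 17.1%. For 0 of the 10 genes did all carboplatin libraries lie above all PBS libraries or below them, against 6.97% and 5.23% of all genes. With PBS 1 to 3 as controls 2 of 10 genes were positive with a median of -0.71, and edgeR called 0 of the 10 and 7 genes in all. Both drug comparisons share the PBS libraries.

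The order of levels, as the group median of CPM per kilobase of exon, was led in PBS by Avp (317), Oxt (75.6) and Trh (11.2), followed by Npy (2.80), Pomc (2.38), Sst (1.65), Agrp (0.512), Pmch (0.435), Tac2 (0.232) and Ghrh (0.111). The ranges of all neighbours in that order overlapped between PBS libraries. In carboplatin Avp (371) and Oxt (34.3) led again, and Trh was at 0.0965. In selumetinib 1 the order was Avp (1792), Oxt (886), Sst (126), Pomc (111), Npy (83.3) and Trh (75.4), with Pmch last at 5.34. In selumetinib 2 it was Avp (519), Oxt (245), Sst (130), Pmch (100.3), Npy (81.2) and Pomc (75.2), with Trh last at 14.3. In selumetinib 3 Avp (505), Oxt (215) and Trh (19.2) led and Pomc was at 2.76, the order of PBS for the first 3 places.

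Other genes of the neuropeptide system were read from gene lists. Of 15 tested precursors of other neuropeptides, edgeR called 0 for selumetinib against PBS (9 higher by DESeq2 and as many by unadjusted p under 0.05, 10 by limma voom), where 6.38%, 14.0% and 29.0% of all genes were so called, and all 15 log2 fold changes were positive with 2.30 as their median. The DESeq2 counts of both drug comparisons cover all 22 matched precursors. Their summed level was 397, 372 and 116 CPM in selumetinib 1, 2 and 3, against 26.6 to 59.6 CPM in carboplatin and 32.6 to 157 CPM in PBS. Pdyn, the dynorphin precursor, was at 62.8, 58.1 and 12.2 CPM in selumetinib 1, 2 and 3, against 6.73 to 13.2 CPM in carboplatin and 1.26 to 16.7 CPM in PBS. Vip, a peptide of the suprachiasmatic nucleus that lies on the chiasm, was instead at 66.7, 6.99 and 43.9 CPM in selumetinib 1, 2 and 3, at 1.18, 0 and 0.234 CPM in carboplatin, and at 84.7 and 88.9 CPM in PBS 2 and PBS 4. PBS 1 listed Vip at 0, and the remaining PBS libraries held 2.10 to 16.9 CPM. Vip was thus below 3 CPM in the carboplatin libraries, PBS 1 and PBS 3, where Trh was below 1 CPM. For carboplatin against PBS, edgeR called 0 of the 15 (at an unadjusted p under 0.05, 7 lower, 5 lower by DESeq2, 0 by limma voom), where 8.43%, 2.77% and 12.7% of all genes were so called, with a median of -1.86.

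Genes that cut, amidate and store peptides summed to 4995, 5745 and 2407 CPM in selumetinib 1, 2 and 3, against 2406 to 2875 CPM in carboplatin and 944 to 3578 CPM in PBS. Of 14, edgeR called 0 for selumetinib against PBS (8 higher at an unadjusted p under 0.05, 5 by DESeq2, 13 by limma voom) and 0 for carboplatin (1 lower at an unadjusted p under 0.05, 0 by DESeq2, 1 lower by limma voom). Of all genes, 14.0%, 6.38% and 29.0% were higher for selumetinib by these rules, and 8.43%, 2.77% and 12.7% lower for carboplatin. Cpe, which trims basic residues from peptides, was at 1643, 2135 and 1052 CPM in selumetinib 1, 2 and 3, at 1571, 1620 and 1465 CPM in carboplatin, and at 547 to 1687 CPM in PBS. Pam, which amidates peptides, was at 296, 370 and 243 CPM in selumetinib 1, 2 and 3, against 158 to 197 CPM in carboplatin and 195 to 247 CPM in PBS. Pcsk1, the convertase that cuts pro-opiomelanocortin, was at 43.2, 43.8 and 6.37 CPM in selumetinib 1, 2 and 3, at 7.74, 0.122 and 3.37 CPM in carboplatin, and at 0.0931 to 11.7 CPM in PBS. It was named as the gene whose log2 CPM followed Avp most closely (Pearson r = 0.886 over the 12 libraries).

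Receptors of these peptides were low. The 20 receptor genes together came to 121, 142 and 38.6 CPM in selumetinib 1, 2 and 3, against 7.50 to 20.9 CPM in carboplatin and 10.01 to 40.9 CPM in PBS. Of the 16 tested, edgeR called 0 for selumetinib (12 higher at an unadjusted p under 0.05, 10 by DESeq2, 13 higher and 1 lower by limma voom) and 0 for carboplatin (2 lower at an unadjusted p under 0.05, and 1 lower by each of DESeq2 and limma voom). The shares of all genes were 14.0%, 6.38% and 29.0% higher for selumetinib (26.4% lower by limma voom), and 8.43%, 2.77% and 12.7% lower for carboplatin. The DESeq2 counts cover all 20 receptor genes. Sstr1, a somatostatin receptor, was at 16.6, 23.7 and 3.51 CPM in selumetinib 1, 2 and 3, and at 1.07 to 5.78 CPM in PBS, while Sstr4 was at 4.64, 5.61 and 14.8 CPM in selumetinib 1, 2 and 3, and at 2.42 to 15.5 CPM in PBS. Mc3r, a melanocortin receptor, was at 5.73, 5.18 and 0.342 CPM in selumetinib 1, 2 and 3, and at 0 to 0.478 CPM in PBS.

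Transcription factors known from the hypothalamus summed to 644, 613 and 410 CPM in selumetinib 1, 2 and 3, against 450 to 562 CPM in carboplatin and 245 to 517 CPM in PBS, with Arnt2 at 320, 261 and 313 CPM in selumetinib 1, 2 and 3. Of 19 tested, edgeR called 0 for selumetinib (by unadjusted p under 0.05, 9 higher and 1 lower, 8 higher by DESeq2, 14 higher and 1 lower by limma voom) and 0 for carboplatin (3 lower by DESeq2 and as many by unadjusted p under 0.05, 1 higher and 1 lower by limma voom). Over all genes the same rules called 14.0%, 6.38% and 29.0% higher for selumetinib (26.4% lower by limma voom) and 8.43%, 2.77% and 12.7% lower for carboplatin (17.1% higher by limma voom). The DESeq2 counts cover all 23 transcription factors of the list. Otp and Sim1, which specify the neurosecretory neurons of the paraventricular and supraoptic nuclei, were each among the 2 closest genes, Otp to Oxt (r = 0.941) and Sim1 to Avp (r = 0.872), over the 12 libraries. Otp was at 58.8, 34.8 and 8.77 CPM in selumetinib 1, 2 and 3, at 5.59, 0.489 and 2.20 CPM in carboplatin, and at 0.652 to 7.58 CPM in PBS. Tbx3, a factor of arcuate neurons, was closest to Agrp (r = 0.963), at 20.3, 34.8 and 2.91 CPM in selumetinib 1, 2 and 3, and at 2.56 to 5.495 CPM in PBS. Closest to Sst was Celf5, an RNA-binding protein of neurons (r = 0.992), closest to Ghrh was Amigo2 (r = 0.986), closest to Tac2 was Pgr15l (r = 0.983), closest to Npy was Dusp8 (r = 0.966), closest to Oxt was Nrip3 (r = 0.952), closest to Trh was Spag6 (r = 0.968), closest to Pmch was Rgs4 (r = 0.939) and closest to Pomc was Tmem199 (r = 0.981). The points of these correlations share the libraries and their tissue content.

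Markers of neighbouring tissues were set beside these values. The 12 markers of the anterior and intermediate pituitary, led by Gh, Prl and Cga, summed to 20.9, 22.2 and 475 CPM in selumetinib 1, 2 and 3, against 1.84 to 55.8 CPM in carboplatin and 0.989 to 372 CPM (PBS 6) in PBS. Gh, the growth hormone gene, was at 0.212, 0.817 and 144 CPM in selumetinib 1, 2 and 3, and at 317 CPM in PBS 6. Tbx19, the factor of Pomc-making pituitary cells, was singled out after its values were seen, and was at 0.531, 1.77 and 0 CPM in selumetinib 1, 2 and 3, against 0 to 0.0816 CPM in carboplatin and 0 to 0.319 CPM in PBS. The 12 cortex and hippocampus markers summed to 100.3, 94.97 and 116 CPM in selumetinib 1, 2 and 3, against 145 to 176 CPM in carboplatin and 52.8 to 151 CPM in PBS. Prox1 alone held 52.9 and 44.6 CPM of the sums in selumetinib 1 and 2, so the sum says little about the other markers. Of the 9 tested, 3 were above the other 10 libraries in both selumetinib 1 and 2 and 1 was below, where 18.7% of all genes tested were above. The 12 retina markers summed to 4.46, 3.16 and 2.61 CPM in selumetinib 1, 2 and 3, against 42.4 to 1439 CPM in carboplatin and 1.87 to 115 CPM in PBS. Astrocyte markers summed to 6214, 5510 and 9004 CPM in selumetinib 1, 2 and 3, against 12548 to 17356 CPM in carboplatin and 4002 to 13004 CPM in PBS. Of these 8 markers, edgeR called Agt and Aldh1l1 higher for carboplatin against PBS (log2 1.91 and 1.10, edgeR adjusted p = 0.01025 and 0.0461). Of the 10 oligodendrocyte markers it called Opalin lower (log2 -2.36, edgeR adjusted p = 0.0162). By the same rule 1.57% of all genes tested were called higher and 0.518% lower. Tanycyte and ependymal markers summed to 217, 277 and 207 CPM in selumetinib 1, 2 and 3, against 165 to 194 CPM in carboplatin and 150 to 231 CPM in PBS. Sympathetic and peripheral nerve markers summed to 82.4, 49.9 and 71.5 CPM in selumetinib 1, 2 and 3, against 5.41 to 16.5 CPM in carboplatin and 4.43 to 518 CPM (PBS 1) in PBS. The part of any of these tissues in the level of each neuropeptide gene was not tested.

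**Figure D5:**
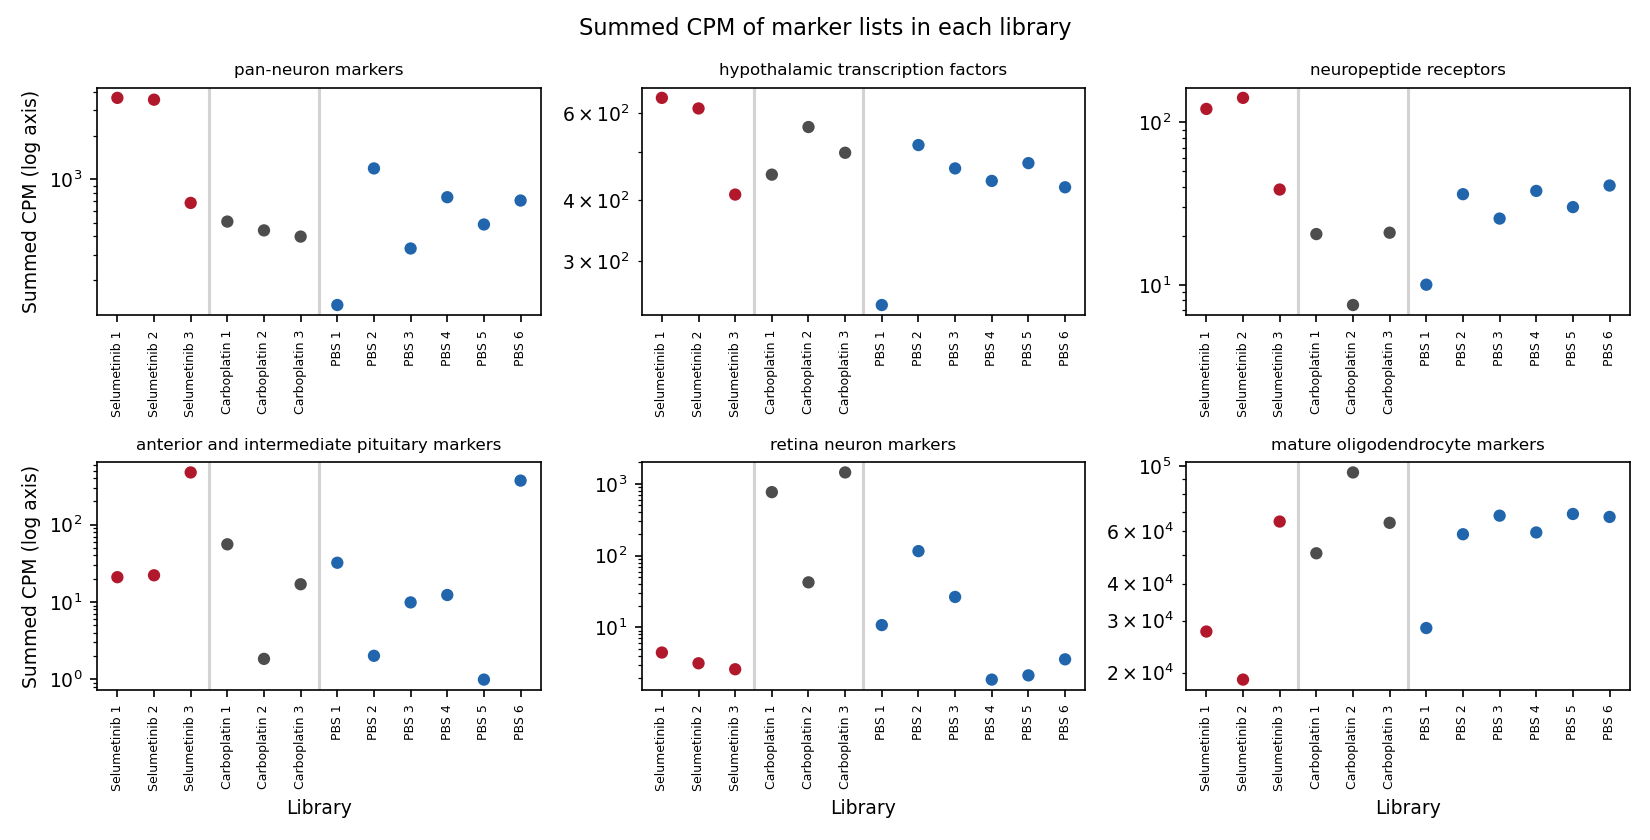
Summed CPM (log axes) of 6 marker lists in each library, coloured red for selumetinib, grey for carboplatin and blue for PBS. Pan-neuron markers are at 3651 and 3547 CPM in selumetinib 1 and 2 and at most 1185 CPM elsewhere, while pituitary markers peak in selumetinib 3 and PBS 6 at 475 and 372 CPM.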

How the data were processed

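The 12 optic nerve libraries, made from bead-selected mRNA per the labels' protocols, were grouped by their treatment label. The authors deposited unnormalized counts for each gene and library in a single table. The build was mm10 per the submitters' processing notes, which name STAR and HTSeq along with FastQC, Trimmomatic and DESeq2. Versions, annotation release and strand setting are not given in the sources used here. Symbols in the table chose the genes, and GENCODE M21 gave coordinates and exon lengths (34490 of 35275 gene IDs matched).

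Genes were kept with filterByExpr (minimum count 10, minimum total 15), and the counts, with TMM factors as offsets, were tested by robust quasi-likelihood in edgeR 4.0.16 (R 4.3.3) in 1 model of 3 groups, adjusted by Benjamini-Hochberg over all 18344 genes at 0.05. The SE is the absolute log2 fold change divided by the square root of the F statistic. Alternatives were DESeq2 1.42.0, limma 3.58.1 voom with quality weights, other scalings and filters, other control sets, a replicate block and libraries left out. The test was checked on simulated counts with less spread than the fitted common dispersion of 0.272 and no differences in tissue content. That check therefore does not show how the test performs on these libraries. Depth was 21793052 to 33375754 counts per library, and a listed 0 allows up to 3 counts. Intervals cover counting error only.

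The 10 genes and the 14 gene lists, of whose genes 1 was not matched, were chosen with earlier results of these data known. Named genes were the 10 and the 3 of each list with the highest mean CPM. For each of the 10, the 2 closest tested genes outside the 10 were added, by Pearson correlation of log2 CPM (prior count 2). Predicted symbols and clone names were left out of that search. List genes called in a comparison were also named. Not all genes the rule allows are named. Hcrt, Tbx19 and Adm were singled out after their values were seen.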

Additional observations from a re-analysis of the deposited data

Results flagged for a closer look

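A library far from the others of its group was looked for among the 6 PBS values of each of the 10 genes, a check that chance flags about 1 time in 20, and it marked 2. Sst was at 21.0 CPM in PBS 2, against 0.0931 to 3.85 CPM in the other PBS libraries, a gap of 0.82 of the whole range. Agrp was at 1.82 CPM in PBS 1, against 0.199 to 0.717 CPM in the other PBS libraries, a gap of 0.68 of the range.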

How the results depend on the processing

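For selumetinib against PBS, edgeR called 0 genes in all. DESeq2 called 2250, limma voom with quality weights 10165, edgeR with PBS 1 to 3 as controls 3, and the fits without 1 library 0 to 4089, where the 4089 came without selumetinib 3. For carboplatin against PBS, edgeR called 383 genes, DESeq2 1469, limma voom 5470, edgeR with library totals only 175, with PBS 1 to 3 as controls 7, with PBS 4 to 6 as controls 2202, and without 1 library 73 (carboplatin 3) to 1941 (PBS 1). The cause was not tested. With the replicate number as a block over numbers 1 to 3, edgeR called 2 genes for selumetinib and 2 for carboplatin and 0 of the 10 neuropeptide genes. The numbers were not taken to pair libraries: same-numbered carboplatin and PBS libraries had correlated deviations of 0.222, 0.000116 and 0.296, and selumetinib and PBS of -0.142, 0.29 and 0.274, and not every library deviated most like its own number (PBS 2 correlated at 0.112 with carboplatin 3 and at 0.331 with selumetinib 1).

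Among the 10 genes, the direction for selumetinib against PBS turned without selumetinib 1 and 2, for Agrp (-0.12), Pmch (-2.44), Sst (-1.77) and Npy (-1.35), a fit that rests on 1 selumetinib library. For carboplatin, Avp turned with PBS 4 to 6 as controls (-0.12) and ranged from -0.72 to 0.81 without 1 library. Agrp turned by limma voom (0.58) and with PBS 4 to 6 as controls (0.27) and ranged from -0.35 to 0.44 without 1 library. Npy turned with PBS 1 to 3 as controls (0.13) and ranged from -0.92 to 0.16 without 1 library. CPM from library totals moved 3 of 120 values by more than the spread of their group. At 3 counts or fewer, as for Ghrh in carboplatin, a difference was not detectable at this depth.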

Other observations

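Hcrt, the orexin precursor of the lateral hypothalamus, was singled out after its values were seen. It was at 6.93, 0.426 and 0.0428 CPM in selumetinib 1, 2 and 3, against 0 to 0.332 CPM in the other libraries, while Pmch, another peptide of that region, was at 4.00, 75.1 and 0.0855 CPM. Hcrt was thus high in selumetinib 1 alone, with selumetinib 2 at 12 counts against at most 10 elsewhere, and Pmch highest in selumetinib 2. Th, which makes catecholamines, was at 29.6, 29.5 and 3.68 CPM in selumetinib 1, 2 and 3, against 0.0408 to 1.70 CPM in carboplatin and 0.453 to 4.88 CPM in PBS. Of the 9 tested tanycyte and ependymal markers, 1 (Col23a1) was above all other libraries in selumetinib 1 and 2, against 18.7% of all genes tested. In the opposite order were 2 of the 9 (Rarres2 and Adm), an order whose share over all genes was not counted. Col23a1 was at 84.7, 97.5 and 40.8 CPM in selumetinib 1, 2 and 3, against 23.4 to 43.5 CPM in carboplatin and 29.2 to 43.5 CPM in PBS. Rarres2 was at 33.9 and 35.3 CPM in selumetinib 1 and 2, against 41.7 to 63.6 CPM in the other libraries, and Adm at 1.98 and 1.06 CPM, against 3.08 to 24.2 CPM. Rax, a tanycyte factor, was the 1 gene of this list called higher for carboplatin against PBS (log2 2.02, edgeR adjusted p = 0.0383), at 2.78, 5.10 and 4.34 CPM in carboplatin against 0.559 to 1.64 CPM in PBS, where 1.57% of all genes were called higher. Of the 9 genes, 2 had a positive log2 fold change for carboplatin, with a median of -0.15. At an unadjusted edgeR p under 0.05, 2 were higher and 2 lower, against 8.12% and 8.43% of all genes.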
